A study of Mus musculus with 9 samples.

Results

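Catalase, the superoxide dismutases and the peroxiredoxins are the enzymes that remove superoxide and hydrogen peroxide from cells. The 10 mouse genes that encode them, Cat, Sod1 to Sod3 and Prdx1 to Prdx6, were taken by symbol from a table of 25781 genes, and each of the 10 had 1 row. The rule used symbols alone and no threshold on measured values. The RNA came from the liver of Swiss mice aged 10 to 12 weeks, in 3 groups of 3 libraries: an untreated control group, a group given β-CYP at 40 mg/kg, and a group given β-CYP at 40 mg/kg with sodium selenite (Na2SeO3) at 50 μg/kg. The last is called the selenite group here. β-CYP is not spelled out in the labels, which also give no sex, route or time of treatment. The series title names selenium and liver injury, and in its design text β-CYP alone stands for the injury and β-CYP with selenite for the repair. No group given selenite alone was analysed here, so a difference between the selenite group and the β-CYP group is one in the presence of β-CYP. The 3 libraries of a group are not said to come from separate animals, so the p-values below reflect only how far these libraries spread, and part or all of that spread may be technical.

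Superoxide, made by the respiratory chain and by oxidases, is converted to hydrogen peroxide by superoxide dismutases: the copper and zinc enzyme SOD1 in the cytosol, the manganese enzyme SOD2 in mitochondria and the secreted SOD3 outside the cell. Hydrogen peroxide is then removed by catalase in peroxisomes and by peroxiredoxins, thiol enzymes that are reduced again mainly by thioredoxin. Liver, with its many peroxisomes, is one of the tissues richest in catalase.

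Cat mRNA was lower in the β-CYP group than in control and lower again in the selenite group. With β-CYP, Sod3 and Prdx2 mRNA were higher and Sod2 and Prdx3 were lower than in control. The falls of Sod2 and Prdx3 with β-CYP were lost under 7 and 8 of the 22 alternatives tried. The fall of Cat and the rise of Prdx2 with β-CYP were each lost under 1, and the rise of Sod3 under none. In the selenite group 6 of the 10 mRNAs, Cat, Sod1, Prdx2, Prdx4, Prdx5 and Prdx6, were lower than in the β-CYP group and none was higher. Of all genes tested, 12.3% were lower and 11.6% higher in that comparison. Among the 317 genes in the range of abundance that holds Cat, Sod1 and Prdx1, 66.2% were lower. The fall of Sod1 turned into a rise under quantile normalization, and that of Prdx5 was lost under several alternatives. The falls of Cat, Prdx2, Prdx4 and Prdx6 with selenite against β-CYP held under all 22 alternatives tried. In bulk tissue, fewer cells of a type and less RNA per cell cannot be told apart.

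Libraries held 28630269 to 36029560 reads. A scaled count is a library's read count divided by a factor of that library, set by the authors so that a typical gene has the same level in every library. Changes are differences of log2(scaled count + 1), given with their standard error (SE), and the test is limma's, two-sided, with Benjamini-Hochberg adjustment over 20145 genes and a threshold of 0.05. Summed levels of marker lists are given as RPM, reads corrected for the library total. The 10 hepatocyte markers together had 92651 to 103233 RPM in control, 115526 to 119203 with β-CYP and 108004 to 109400 with selenite, and none was at 0 in any library. The 19 pancreatic acinar markers together had 27.3 to 35.3 RPM in control, 35.1 to 37.1 with β-CYP and 1485 to 1532 with selenite. All 19 were detected in each selenite library, whereas 12 to 17 of them were at 0 in each of the other libraries. Control replicate 2 had 25.1% of its reads in its 10 most abundant genes, against 18.6% and 18.8% in the other controls, mostly through the rRNA-like AY036118. The part of these marker differences in the results below was not tested. For control replicate 2, results of fits that left it out are given below.

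Levels of different genes were compared per kilobase of exon, with lengths from the GENCODE annotation of another build, as a description. Cat was the most abundant of the 10 in all 3 groups, with 43448 ± 530 (SD, n = 3) scaled counts per kb in control, 38304 ± 512 with β-CYP and 26178 ± 395 with selenite. With the union of exons as length, Prdx1 (7929 ± 226 in control) and Sod1 (4417 ± 30.5) came next. Prdx6 (1956 ± 27.9) and Prdx5 (1934 ± 51.4) overlapped in control. Below them stood Prdx3 (1804 ± 38.9), Prdx4 (1053 ± 16.3), Prdx2 (755 ± 5.24), Sod2 (494 ± 8.06) and Sod3 (162 ± 10.9), whose libraries did not overlap with those of their neighbours. With the longest coding transcript as length, Sod1 (27356 ± 189 scaled counts per kb in control) stood above Prdx1 (10518 ± 299), while Cat stayed first, Sod2 ninth and Sod3 last. In the selenite group, by the union of exons, Prdx6 (1398 ± 129) stood sixth, below Prdx5 (1568 ± 64.2) and Prdx3 (1534 ± 28.1), and these 3 overlapped. Of all genes in the table, Cat ranked 54 by mean scaled count, Prdx1 175, Sod1 234 and Prdx6 422, not corrected for length, and Sod3 ranked 4773.

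**Figure D1:**
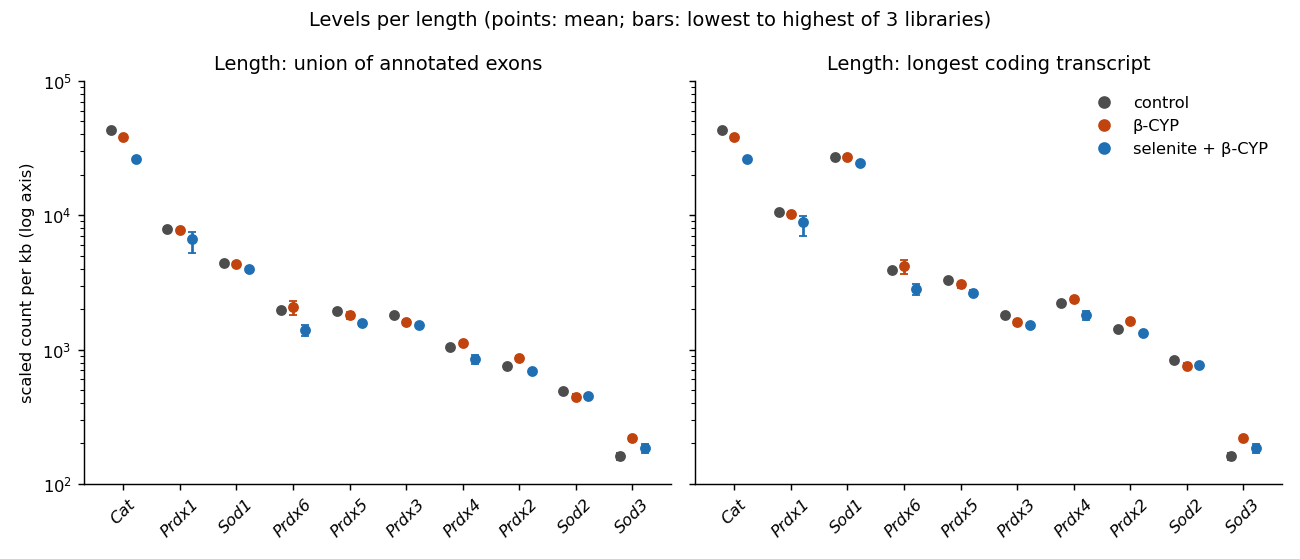
Scaled counts per kilobase (log axis) of the 10 enzymes in the 3 groups, with the union of annotated exons (left) or the longest coding transcript (right) as length. Points are means and bars run from the lowest to the highest of 3 libraries. Cat is highest and Sod3 lowest in both panels, and Sod1 and Prdx1 exchange places between them.

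Promoter sequences from RefSeq (GRCm38.p6; 250 bases before to 50 after the annotated start) matched 8 of the 10 genes by symbol. Sod3 and Prdx6 were not in that table. Of 4 motifs searched, all known from regulators of these enzymes, 3 were absent on both strands from all 8 windows. These were the direct repeat bound by PPAR and RXR (in 0.0396% of 32851 promoters), TGTTTAC, the core bound by FOXO and FOXA factors (3.65%), and the NF-kB motif (1.47%). TGACNNNGC, the core of the antioxidant response element through which NRF2 acts, was found in 2 of the 8, Prdx1 and Sod1, and in 12.4% of the 32851 promoters. The 250 bases before the start are shown 5′ to 3′ for Cat, the enzyme with the largest change against control, and for Sod1 and Prdx1, the pair that holds the core. Capitals mark the core, which reads GCGTGGTCA at -56 in Sod1 and GCTGAGTCA at -133 in Prdx1, in the reverse orientation in both, counted from the start. The sequences lie at chr2:103485154-103485403 (minus strand, Cat), chr16:90220512-90220761 (plus strand, Sod1) and chr4:116685349-116685598 (plus strand, Prdx1).
Cat: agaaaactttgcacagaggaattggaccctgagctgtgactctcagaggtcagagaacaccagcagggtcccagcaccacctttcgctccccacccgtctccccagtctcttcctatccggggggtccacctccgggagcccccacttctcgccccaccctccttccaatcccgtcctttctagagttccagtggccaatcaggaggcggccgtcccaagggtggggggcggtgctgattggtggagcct
Sod1: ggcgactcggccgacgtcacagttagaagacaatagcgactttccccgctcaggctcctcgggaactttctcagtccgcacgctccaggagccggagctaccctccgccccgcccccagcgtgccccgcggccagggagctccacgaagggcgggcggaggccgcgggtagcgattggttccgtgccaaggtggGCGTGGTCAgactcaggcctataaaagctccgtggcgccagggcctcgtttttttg
Prdx1: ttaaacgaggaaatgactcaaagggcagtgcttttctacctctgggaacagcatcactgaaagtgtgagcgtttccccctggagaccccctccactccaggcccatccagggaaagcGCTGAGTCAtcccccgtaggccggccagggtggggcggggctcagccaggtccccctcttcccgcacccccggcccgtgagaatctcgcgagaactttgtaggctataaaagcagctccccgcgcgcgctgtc
These matches describe letters in a window and say nothing of a factor at work. Nfe2l2, which encodes NRF2, had 1596 ± 38.5 (SD, n = 3) scaled counts in control, 1442 ± 78.7 with β-CYP and 1536 ± 30.7 with selenite, and its differences did not pass (limma adjusted p = 0.0725, 0.222 and 0.456 for β-CYP against control, selenite against β-CYP and selenite against control). Neither did those of Keap1, which encodes the protein that marks NRF2 for breakdown (adjusted p = 0.726, 0.389 and 0.664).

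Catalase, which breaks down hydrogen peroxide in peroxisomes, showed a stepwise pattern over the groups. Cat (ENSMUSG00000027187) had 111935, 114211 and 114439 scaled counts in the control libraries, 98963, 99732 and 101569 with β-CYP, and 67372, 68405 and 69436 with selenite. The 3 groups did not overlap, and the spread within each was a small part of the distance between them. Against control, Cat fell by 11.8% with β-CYP (log2 change -0.18 ± 0.018 SE, limma adjusted p = 8.83e-05). With selenite it fell by 31.7% against β-CYP (log2 change -0.55 ± 0.018, adjusted p = 2.17e-08) and fell by 39.7% against control (-0.73 ± 0.018, adjusted p = 1.97e-09). The comparisons share libraries: the β-CYP libraries enter both steps, and the step against control is their sum. Without limma's intensity trend the fall with β-CYP did not pass (adjusted p = 0.0537). Quantile normalization reduced the fall against β-CYP to -0.19 (adjusted p = 1.52e-04) and that against control to -0.45 (adjusted p = 2.37e-07).

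Cat alone gave 0.317% to 0.350% of all reads in control libraries, 0.297% to 0.305% with β-CYP and 0.222% to 0.226% with selenite, ranges that do not overlap. Of the reads of the 10 enzymes together, Cat held 61.9% to 63.1% in control, 59.5% to 60.2% with β-CYP and 52.6% to 56.5% with selenite. The other 9 summed to 66728 to 68896 scaled counts in control, 65952 to 69219 with β-CYP and 52573 to 60606 with selenite, so that the sum without Cat overlapped between control and β-CYP and was lower in all 3 selenite libraries.

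Of the superoxide dismutases, the secreted one moved most with β-CYP. Sod3 (ENSMUSG00000072941) had 638, 561 and 622 scaled counts in control, 812, 856 and 781 with β-CYP, and 632, 703 and 746 with selenite. The β-CYP libraries were above all others, and the selenite libraries overlapped with control. Sod3 rose by 34.6% with β-CYP (log2 change 0.43 ± 0.079, limma adjusted p = 0.00468), a rise that held under all 22 alternatives. The difference between selenite and β-CYP was -0.24 ± 0.079 (adjusted p = 0.0574) and that between selenite and control 0.19 ± 0.079 (adjusted p = 0.105). Neither passed, but both were near enough to the threshold for single libraries or the scaling to decide them. The first passed without selenite replicate 3 (adjusted p = 0.0414) or control replicate 2 (0.0491), with equal medians (0.0342), with trimmed-mean scaling (0.0470), with limma-voom on recovered reads (0.0479) and with a minimum mean scaled count of 10 (0.0460). The second passed without selenite replicate 1 (0.0422) and with equal totals (0.0395). Sod3 is the least abundant of the 10, with 544 to 845 reads per library.

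Sod1 and Sod2, the intracellular dismutases, differed less. Sod1 (ENSMUSG00000022982) had 17515, 17425 and 17665 scaled counts in control, 17718, 17503 and 16871 with β-CYP, and 15966, 15664 and 15601 with selenite. Control and β-CYP overlapped (log2 change -0.01 ± 0.024, 95% interval -0.07 to 0.04, limma adjusted p = 0.757), and the selenite libraries were below both. With selenite Sod1 fell by 9.31% against β-CYP (-0.14 ± 0.024, adjusted p = 0.00178) and by 10.2% against control (-0.16 ± 0.024, adjusted p = 7.88e-04). These steps depended on the scaling: with equal totals they were -0.01 (adjusted p = 0.898) and -0.02 (0.832), and under quantile normalization they turned to 0.11 (0.0176) and 0.12 (0.00845).

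Sod2 (ENSMUSG00000006818), the mitochondrial enzyme, had 5037, 4908 and 4889 scaled counts in control, 4405, 4323 and 4653 with β-CYP, and 4604, 4558 and 4346 with selenite. Both treated groups were below control and overlapped with each other. Sod2 fell by 9.84% with β-CYP (log2 change -0.15 ± 0.037, limma adjusted p = 0.0219) and fell by 8.96% with selenite against control (-0.14 ± 0.037, adjusted p = 0.0214), and the selenite and β-CYP groups differed by 0.01 ± 0.037 (95% interval -0.07 to 0.10, adjusted p = 0.853). The fall with β-CYP did not pass without control replicate 1 (adjusted p = 0.0741), control replicate 2 (0.0514), β-CYP replicate 1 (0.0719) or β-CYP replicate 2 (0.0804), nor with equal totals (0.188). The fall with selenite did not pass without control replicate 1 (0.0704), selenite replicate 3 (0.0736) or the intensity trend (0.130). It was -0.02 under quantile normalization (adjusted p = 0.738), and with equal totals the change was 8.91e-04 (adjusted p = 0.996).

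**Figure D2:**
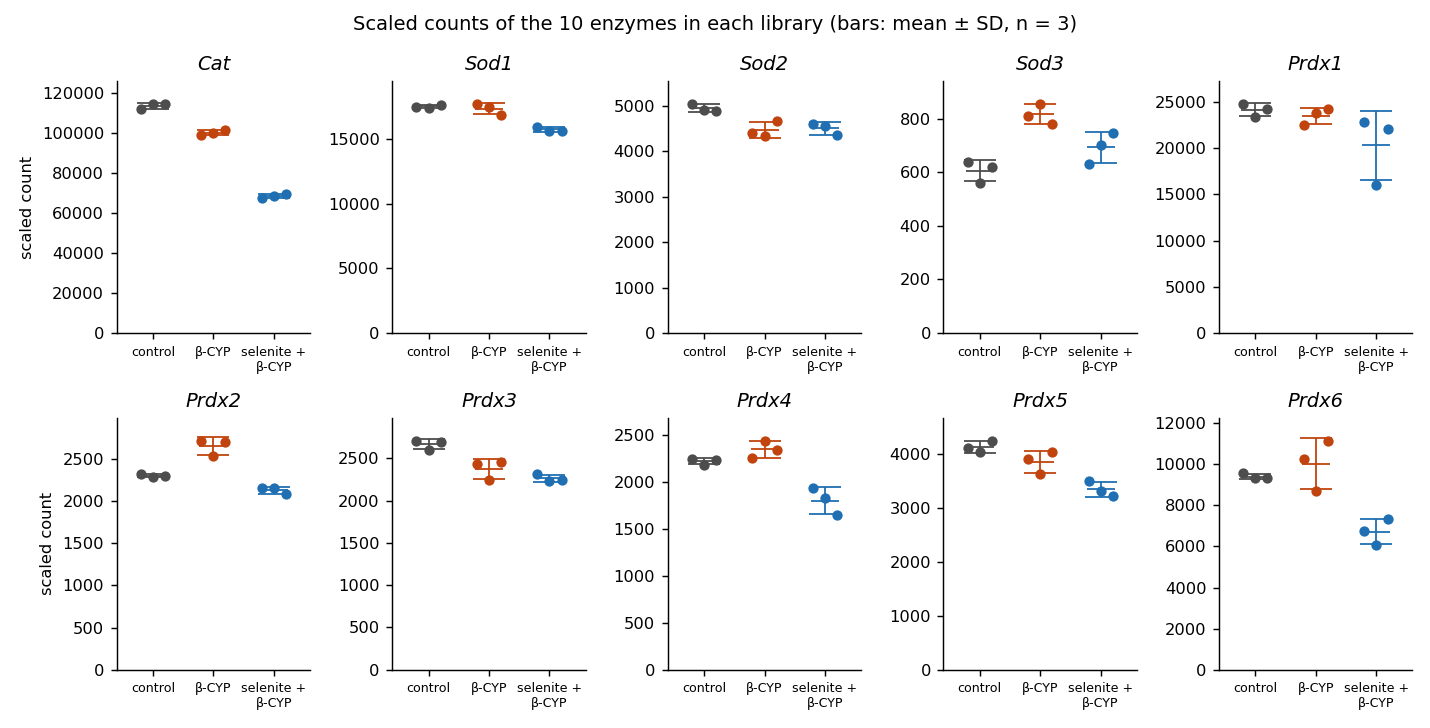
Scaled counts of the 10 enzymes in each of the 9 libraries, 1 panel per gene, with axes starting at 0. Points are libraries, and horizontal bars with whiskers are group means ± SD (n = 3). Cat steps down from about the same level in 3 controls to the 3 selenite libraries at 67372 to 69436, and 1 selenite library of Prdx1 lies far below its group.

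Of the peroxiredoxins with 2 active cysteines, Prdx1 is the abundant cytosolic form. Prdx1 (ENSMUSG00000028691) had 24765, 23401 and 24216 scaled counts in control, 22508, 23740 and 24210 with β-CYP, and 22763, 16018 and 22105 with selenite. Selenite replicate 2 stood apart at 16018, and the other libraries lay between 22105 and 24765. No comparison passed: the log2 change was -0.04 ± 0.11 for β-CYP against control (limma adjusted p = 0.875), -0.23 ± 0.11 for selenite against β-CYP (adjusted p = 0.184) and -0.27 ± 0.11 for selenite against control (adjusted p = 0.106). Both values with selenite rest largely on that library: without it they were -0.07 (adjusted p = 0.297) and -0.10 (adjusted p = 0.0862), and under quantile normalization they were 0.02 and 0.05. Gpx1, the cytosolic glutathione peroxidase, was low in the same library, with 4241 reads against 38258 and 35500 in the other selenite libraries. Selenite replicate 2 was not unusual across genes. Of the 3623 genes averaging 1000 scaled counts or more, 37 lay at least 0.4 log2 below both other libraries of the group there, against 28 to 43 in the other 8 libraries.

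Prdx2, a second cytosolic form that is also abundant in red blood cells, rose with β-CYP and was lower again with selenite. Prdx2 (ENSMUSG00000005161) had 2320, 2288 and 2303 scaled counts in control, 2719, 2536 and 2707 with β-CYP, and 2155, 2152 and 2084 with selenite, and the 3 groups did not overlap. It rose by 15.2% with β-CYP (log2 change 0.20 ± 0.038, limma adjusted p = 0.00505) and fell by 19.7% with selenite against β-CYP (-0.32 ± 0.038, adjusted p = 2.16e-04). Against control the selenite group differed by -0.11 ± 0.038 (adjusted p = 0.0518). It passed without β-CYP replicate 2 (0.0364), with equal medians (-0.16, 0.0108), with trimmed-mean scaling (0.0331), with a pseudocount of 0.01 (0.0407) and with a minimum mean scaled count of 10 (0.0411), whereas with equal totals its sign turned (0.02, 0.820). The rise did not pass without the intensity trend (adjusted p = 0.0523), and with equal totals the fall was -0.19 (adjusted p = 0.0498). The 8 erythroid markers in the table, of which 1 or 2 were at 0 in each library, summed to 811 to 914 RPM in control, 743 to 775 with β-CYP and 705 to 716 with selenite. Their sum was lower with β-CYP than in control, without overlap, and of the 7 tested 4 fell and none rose in that comparison, in which Prdx2 rose. With selenite against β-CYP, where Prdx2 fell, 2 of the 7 fell and none rose. The part of red blood cells in the values of Prdx2 was not tested.

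Prdx3 and Prdx4 act in mitochondria and in the endoplasmic reticulum. Prdx3 (ENSMUSG00000024997) had 2709, 2601 and 2688 scaled counts in control, 2429, 2240 and 2462 with β-CYP, and 2315, 2238 and 2249 with selenite. As with Sod2, the other mitochondrial enzyme, both treated groups were below control and overlapped with each other. Prdx3 fell by 10.9% with β-CYP (log2 change -0.17 ± 0.043, limma adjusted p = 0.0268) and by 15.0% with selenite against control (-0.23 ± 0.043, adjusted p = 0.00267), and selenite and β-CYP differed by -0.07 ± 0.043 (95% interval -0.16 to 0.03, adjusted p = 0.324). The fall with β-CYP did not pass without control replicate 1 (adjusted p = 0.0843), control replicate 3 (0.0758) or β-CYP replicate 2 (0.0791). With equal totals the fall against control was -0.10 with selenite (adjusted p = 0.331), and under quantile normalization it was -0.14 (adjusted p = 0.0448).

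Prdx4 (ENSMUSG00000025289), which uses peroxide in the folding of secreted proteins, had 2242, 2179 and 2234 scaled counts in control, 2257, 2437 and 2338 with β-CYP, and 1929, 1826 and 1641 with selenite. The selenite libraries were below all others, and the β-CYP libraries were above all controls without passing (log2 change 0.08 ± 0.059, limma adjusted p = 0.446). Prdx4 fell by 23.4% with selenite against β-CYP (-0.38 ± 0.059, adjusted p = 0.00103) and by 19.1% against control (-0.31 ± 0.059, adjusted p = 0.00332). With equal totals the fall against control was -0.17 and did not pass (adjusted p = 0.145).

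Prdx5 is an atypical peroxiredoxin of mitochondria, peroxisomes and cytosol, and Prdx6 is the form with a single active cysteine, which also acts on oxidized phospholipids. Prdx5 (ENSMUSG00000024953) had 4117, 4039 and 4256 scaled counts in control, 3909, 3640 and 4048 with β-CYP, and 3501, 3328 and 3230 with selenite. The selenite libraries were below all others, and control and β-CYP overlapped (log2 change -0.10 ± 0.047, limma adjusted p = 0.209). It fell by 13.2% with selenite against β-CYP (-0.20 ± 0.047, adjusted p = 0.0110) and by 19.0% against control (-0.30 ± 0.047, adjusted p = 9.21e-04). With equal totals these steps were -0.08 (adjusted p = 0.497) and -0.17 (0.111), and under quantile normalization the first was -0.11 (0.135) and the second -0.20 (0.00932).

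Prdx6 (ENSMUSG00000026701) had 9552, 9326 and 9314 scaled counts in control, 10239, 8677 and 11148 with β-CYP, and 6740, 6085 and 7327 with selenite. The β-CYP libraries spread on both sides of control (log2 change 0.09 ± 0.089, 95% interval -0.11 to 0.28, limma adjusted p = 0.605), and the selenite libraries were below all others. Prdx6 fell by 32.8% with selenite against β-CYP (-0.57 ± 0.089, adjusted p = 0.00112) and fell by 28.7% against control (-0.49 ± 0.089, adjusted p = 0.00240). Both falls held under all 22 alternatives, and were smallest under quantile normalization, at -0.35 and -0.27. The fall of Prdx6 against β-CYP was close in size to that of Cat, with an SE several times larger.

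**Figure D3:**
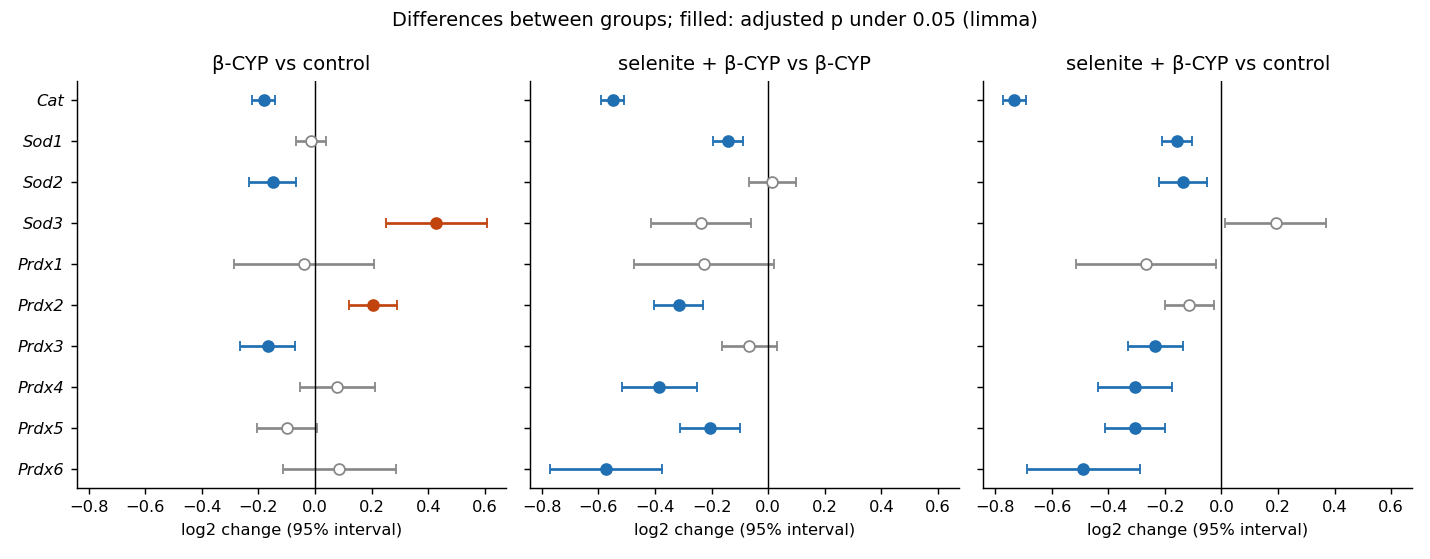
Log2 changes with their 95% intervals (x axis) of the 10 enzymes in the 3 comparisons, 1 panel each. Filled symbols passed limma's adjusted p of 0.05, in red where higher and in blue where lower, and open symbols did not. All 6 filled symbols of selenite against β-CYP and all 7 of selenite against control lie below 0 (Sod1 and Sod2 not under every scaling), whereas β-CYP against control has 2 above and 3 below. Over all genes tested 23.9%, 28.9% and 16.3% passed in these comparisons, in that order.

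Counted by comparison, 5 of the 10 passed for β-CYP against control, 2 higher (Sod3 and Prdx2) and 3 lower (Cat, Sod2 and Prdx3). Over all genes tested 16.3% passed, 7.72% higher and 8.58% lower. The 2 groups did not overlap for 6 of the 10, against 31.6% of all genes. For selenite against β-CYP 6 of the 10 passed, all lower except that Sod1 turned under quantile normalization, against a background of 23.9%, of which 11.6% higher and 12.3% lower. Groups did not overlap for 7 of the 10, against 37.8%. For selenite against control 7 of the 10 passed, all lower except that Sod1 turned under quantile normalization and Sod2 with equal totals, against a background of 28.9%, of which 14.4% higher and 14.5% lower. Groups did not overlap for 9 of the 10, against 41.8%. The median log2 change of the 10 was -0.03, -0.23 and -0.25 in the 3 comparisons in that order, beside -0.0013, 0.02 and 0.03 for all genes tested.

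These backgrounds differ with abundance, and all of the enzymes but Sod3 averaged more than 1000 scaled counts. For selenite against β-CYP, 66.2% of the 317 genes with a mean scaled count of 10000 to 100000 were lower and 14.8% higher, with a median log2 change of -0.26. This range holds Cat, Sod1 and Prdx1. Of the 3254 genes at 1000 to 10000, the range of Sod2, Prdx2, Prdx3, Prdx4, Prdx5 and Prdx6, 33.4% were lower and 18.3% higher, with a median of -0.07. For selenite against control 64.0% and 36.3% of the genes in these ranges were lower. A fall of Sod1 by 0.14 was thus smaller than the median of its range, whereas Cat at -0.55, Prdx6 at -0.57, Prdx4 at -0.38 and Prdx2 at -0.32 were below the medians of theirs. For β-CYP against control the medians of the 2 ranges were -0.01 and -0.0082. In the first 36.0% were lower and 32.5% higher, and in the second 19.9% were lower and 16.04% higher. The 16.3% over all genes tested is thus below the share that passed in either of these ranges. At 100 to 1000, the range of Sod3, 9.05% were lower and 9.42% higher. Hepatocyte markers, mostly abundant too, mostly fell in the selenite group by limma's test on scaled counts. Against β-CYP 1 of 10 rose and 8 fell, with a median log2 change of -0.23. Against control 2 rose and 7 fell, with a median of -0.20. The summed RPM of these markers went the other way against control, at 108004 to 109400 with selenite and 92651 to 103233 in control. With β-CYP against control 5 of them rose and 2 fell, with a median of 0.10. Their part in the falls of the enzymes was not tested.

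The scaling between libraries also moved this balance. When libraries were scaled to equal totals, the median log2 change of all genes rose to 0.14 for selenite against β-CYP and 0.15 for selenite against control. All genes then split into 3200 higher and 1324 lower in the first, against 2337 and 2468 with the authors' scaling, and into 3948 and 1757 in the second, against 2908 and 2915. With equal totals 4 of the 10 enzymes passed for selenite against β-CYP, all lower: Cat at -0.42 (adjusted p = 2.63e-04), Prdx6 at -0.45 (0.0120), Prdx4 at -0.26 (0.0438) and Prdx2 at -0.19 (0.0498). Relative to the shifted median their distances are close to those with the authors' scaling. That is so by construction, since such a scaling shifts abundant genes nearly alike, and it is no separate check. For selenite against control 3 passed, Cat at -0.59 (adjusted p = 2.24e-05) and Prdx6 at -0.35 (0.0283) lower, and Sod3 at 0.33 (0.0395) higher. For β-CYP against control, where the shift was 0.00, 3 passed: Sod3 at 0.44 (0.0213), Prdx2 at 0.21 (0.0479) and Cat at -0.17 (0.0434).

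**Figure D4:**
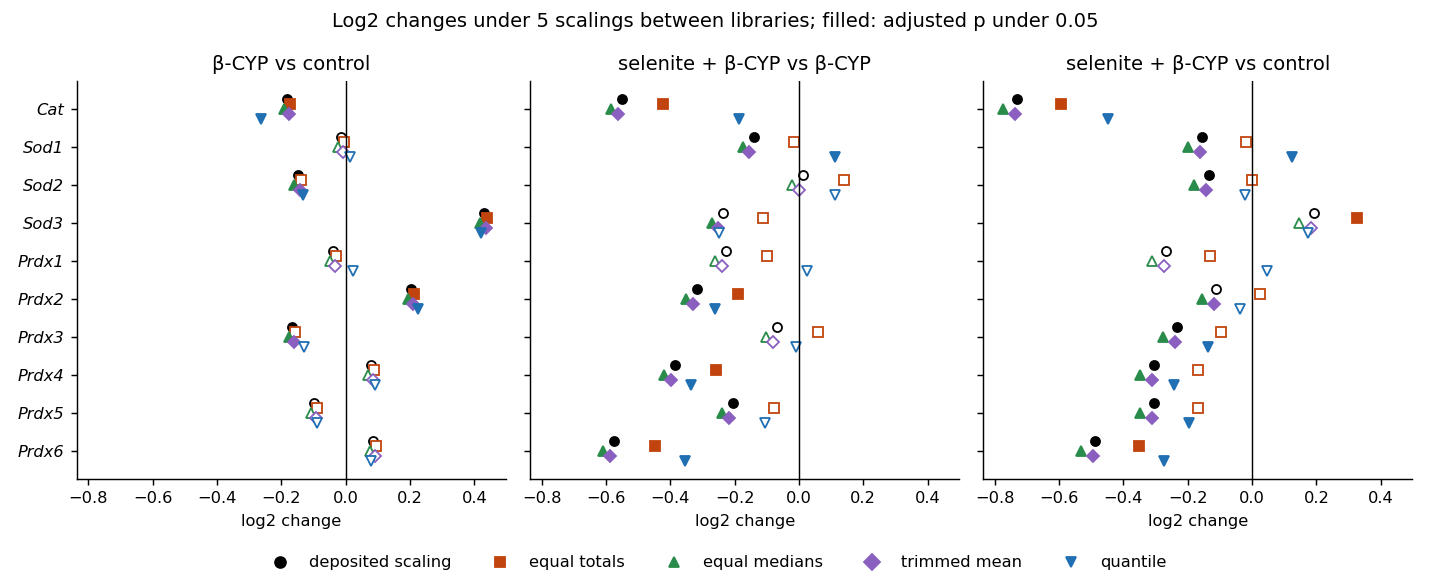
Log2 changes (x axis) of the 10 enzymes in the 3 comparisons under the authors' scaling (circles), equal totals (squares), equal medians (triangles), trimmed-mean scaling (diamonds) and quantile normalization (inverted triangles). Filled symbols passed an adjusted p of 0.05. The 5 symbols of Cat and of Prdx6 stay filled and below 0 in both comparisons with selenite, and those of Sod1 lie on both sides of 0.

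Sulfiredoxin, which repairs overoxidized peroxiredoxins, rose in the selenite group, in which none of the peroxiredoxins did. Srxn1 had 814, 1041 and 753 scaled counts in control, 898, 925 and 870 with β-CYP, and 1911, 1593 and 2150 with selenite, which lay above all others. It rose by 1.06 ± 0.13 on the log2 scale against β-CYP (limma adjusted p = 2.50e-04) and by 1.12 ± 0.13 against control (adjusted p = 1.36e-04), while β-CYP and control differed by 0.06 (adjusted p = 0.831). Of the 18 genes of the thioredoxin and glutaredoxin system, 2 rose and 3 fell with β-CYP. With selenite 2 rose and 6 fell against β-CYP, and 2 rose and 7 fell against control. The median log2 changes were -0.05, -0.18 and -0.18. Beside these, 16.3%, 23.9% and 28.9% of all genes tested passed, with medians of -0.0013, 0.02 and 0.03. The glutaredoxin gene Glrx rose by 0.34 ± 0.04 with selenite against β-CYP (adjusted p = 1.42e-04). The mitochondrial thioredoxin reductase Txnrd2 fell by 0.39 ± 0.08 (adjusted p = 0.00482) in that comparison. Txn1, the cytosolic thioredoxin, fell by 0.27 ± 0.05 (adjusted p = 0.00293), and with equal totals its change of -0.15 did not pass (adjusted p = 0.154). Gstp1, a glutathione transferase known to reactivate Prdx6, had 53049 ± 770 (SD, n = 3) scaled counts in control, 45413 ± 370 with β-CYP and 33823 ± 2720 with selenite. It fell by 0.22 ± 0.05 with β-CYP (adjusted p = 0.0105) and by 0.65 ± 0.05 with selenite against control (adjusted p = 5.39e-06). With equal totals the fall of Gstp1 with β-CYP did not pass (adjusted p = 0.0717). Sesn3, a sestrin, fell by 0.50 ± 0.08 with β-CYP (adjusted p = 0.00182). Of the 7 glutathione peroxidases, which remove the same peroxide with glutathione, none passed with β-CYP. Gpx4, which acts on lipid peroxides in membranes, fell by 0.24 ± 0.03 with selenite against β-CYP (adjusted p = 2.24e-04), and did not pass with equal totals (-0.11, adjusted p = 0.169).

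Of 12 genes that supply copper and manganese to the dismutases, 4 rose and 3 fell with β-CYP, with a median of -0.04. The share of all genes tested that passed was 16.3%. Slc39a14, a carrier that takes up zinc, iron and manganese, rose by 1.20 ± 0.03 (limma adjusted p = 9.33e-09), from 7523 ± 295 to 17231 ± 407 scaled counts (SD, n = 3), and stood at 15423 ± 223 with selenite. Slc40a1, the iron exporter ferroportin, fell by 0.85 ± 0.04 (adjusted p = 3.09e-07). Atox1, a copper chaperone, rose by 0.50 ± 0.07 with β-CYP (adjusted p = 0.00110). Ccs, the chaperone that loads copper into SOD1, had 3717 ± 59.4 scaled counts in control, 3233 ± 44.7 with β-CYP and 2849 ± 145 with selenite. Its fall with selenite against control, 0.39 ± 0.04 (adjusted p = 6.12e-05), was larger than that of Sod1 in the same comparison, though the difference between the genes was not tested. Ccs fell by 0.20 ± 0.04 with β-CYP (adjusted p = 0.00699), which did not pass with equal totals (0.0930). In all 1 of the 12 rose and 6 fell with selenite against β-CYP, and 1 rose and 3 fell against control, with medians of -0.14 and 0.02. Among all genes tested 23.9% and 28.9% passed.

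Of 21 tested genes for enzymes that make superoxide or hydrogen peroxide, 4 rose and 6 fell with β-CYP. With selenite 6 rose and 8 fell against β-CYP, and 8 rose and 9 fell against control. The shares of all genes tested that passed were 16.3%, 23.9% and 28.9%. Xdh, xanthine dehydrogenase, rose by 0.49 ± 0.03 with β-CYP (adjusted p = 7.40e-06). Aox3, an aldehyde oxidase, fell by 0.81 ± 0.02 (adjusted p = 9.99e-09), and Nox4, an NADPH oxidase, by 0.58 ± 0.06 (adjusted p = 1.42e-04). With selenite against β-CYP, Maob, a mitochondrial monoamine oxidase, fell by 0.59 ± 0.03 (adjusted p = 8.24e-07). Some enzymes of this list are made mainly by phagocytes. The 10 neutrophil markers summed to 4.52 to 5.96 RPM in control, 15.6 to 18.1 with β-CYP and 25.0 to 28.4 with selenite. The 12 Kupffer cell and macrophage markers summed to 442 to 507, 493 to 506 and 664 to 667 RPM in that order, so that control and β-CYP overlapped. Of these 12, 3 rose and 3 fell with β-CYP, and 7 rose and none fell with selenite against β-CYP. Up to 3 of the neutrophil markers and none of the macrophage markers were at 0 in a library, and the part of these cells in the counts of this list was not tested.

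Genes of peroxisome biogenesis and membrane moved in both directions. Of 22, 3 rose and 2 fell with β-CYP, 1 rose and 6 fell with selenite against β-CYP, and 4 rose and 4 fell with selenite against control. Their medians were 0.04, -0.12 and -0.04. Among all genes tested 16.3%, 23.9% and 28.9% passed in these comparisons. Abcd3, an abundant transporter of the peroxisomal membrane, had 12891 ± 314 scaled counts in control, 11821 ± 223 with β-CYP and 8820 ± 241 with selenite. It fell by 0.42 ± 0.03 with selenite against β-CYP (limma adjusted p = 4.87e-06) and by 0.55 ± 0.03 against control (adjusted p = 6.02e-07). Under quantile normalization the first of these was -0.14 (adjusted p = 0.0172). Pex19, which brings proteins to that membrane, fell by 0.45 ± 0.05 with selenite against β-CYP, and Pxmp2, a channel in it, by 0.34 ± 0.05. Abcd2, a transporter of very long fatty acids at a low level here, rose by 1.47 ± 0.24 (adjusted p = 0.00141), from 33.5 ± 6.62 to 94.7 ± 18.6 scaled counts.

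In oxidative folding in the endoplasmic reticulum, the compartment of Prdx4, 1 of 14 genes rose and 4 fell with β-CYP. With selenite 9 rose and 1 fell against β-CYP, and 5 rose and 1 fell against control. All genes tested passed at 16.3%, 23.9% and 28.9% in these comparisons. Pdia4, a disulfide isomerase, had 9708 ± 24.6 scaled counts in control, 5976 ± 123 with β-CYP and 11470 ± 147 with selenite (SD, n = 3). Ero1lb, an oxidase that makes hydrogen peroxide while it forms disulfides, had 3460 ± 11.9, 1722 ± 109 and 2471 ± 52.1 in that order. Pdia4 fell by 0.70 ± 0.02 with β-CYP (limma adjusted p = 5.15e-08) and rose by 0.94 ± 0.02 with selenite against β-CYP (adjusted p = 4.32e-09). Ero1lb fell by 1.01 ± 0.05 (adjusted p = 4.19e-07) and rose by 0.52 ± 0.05 (adjusted p = 2.87e-05). Prdx4 was lower in the selenite group, where these genes were higher than with β-CYP. Pdia2, a disulfide isomerase known from pancreas, had 88, 130 and 100 reads in the selenite libraries and 0 in the other 6. These are the 3 libraries in which the acinar markers were high. The part of pancreatic RNA in the values of this list was not tested.

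Of 18 regulators of antioxidant genes, 2 rose and 4 fell with β-CYP. With selenite 4 rose and 5 fell against β-CYP, and 4 rose and 5 fell against control. The shares over all genes tested were 16.3%, 23.9% and 28.9%. Foxo1 and Foxo3, factors known to act on Cat and Sod2, stepped down over the groups. Foxo1 had 2329 ± 45.4 scaled counts in control, 1636 ± 34.3 with β-CYP and 1107 ± 91.5 with selenite (SD, n = 3), and Foxo3 had 2146 ± 44.4, 1513 ± 52.4 and 1200 ± 51.3. Foxo1 fell by 0.51 ± 0.06 with β-CYP (limma adjusted p = 2.54e-04) and by 0.57 ± 0.06 with selenite against β-CYP (adjusted p = 8.06e-05). Foxo3 fell by 0.50 ± 0.05 with β-CYP (adjusted p = 5.54e-05) and by 0.84 ± 0.05 with selenite against control (adjusted p = 7.52e-07). Ppargc1a, a coactivator of mitochondrial and antioxidant genes, fell by 1.05 ± 0.12 with β-CYP (adjusted p = 2.93e-04). Sirt3, a mitochondrial deacetylase of SOD2, fell by 0.57 ± 0.09 with selenite against β-CYP (adjusted p = 0.00167), while Sod2 did not differ beyond its spread there. Trp53, which encodes p53, rose by 0.39 ± 0.07 in that comparison. Mafg, a partner of NRF2 on DNA, fell by 0.56 ± 0.06 there. Mafk, another such partner, rose by 0.34 there (adjusted p = 0.0447), which was lost under 13 of the 22 alternatives. With selenite against control Mafk rose by 0.62 (adjusted p = 0.00164).

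**Figure D5:**
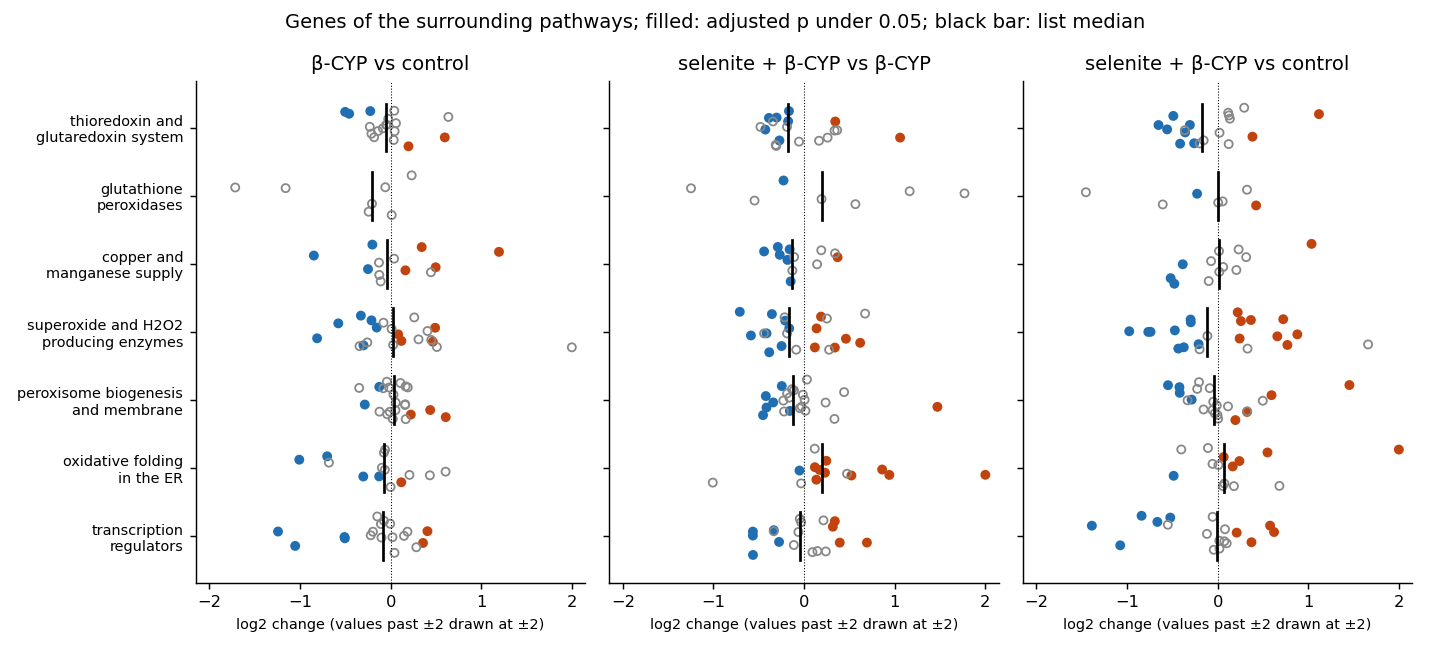
Log2 changes (x axis, values past ±2 drawn at ±2) of the genes of the 7 surrounding lists in the 3 comparisons. Points are genes, filled where limma's adjusted p was under 0.05 (red higher, blue lower), and black bars are list medians. For selenite against β-CYP, 9 of the 14 genes of oxidative folding are filled and above 0, and 6 of the 18 of the thioredoxin and glutaredoxin system are filled and below 0. Over all genes tested 11.6% were higher and 12.3% lower in that comparison.

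Over the 9 libraries and the 10519 genes averaging 100 scaled counts or more, those whose log2 values followed Cat most closely were Cyp2a5, Tat and Slc38a4, with Pearson's r of 0.9996, 0.9990 and 0.9983. Tat, which encodes tyrosine aminotransferase, had 81042 ± 1130 scaled counts in control, 58171 ± 195 with β-CYP and 22089 ± 279 with selenite (SD, n = 3), and Cyp2a5, a cytochrome P450, had 14747 ± 232, 9430 ± 282 and 2450 ± 104. Slc38a4, an amino acid transporter, had 37541 ± 569, 32184 ± 569 and 19249 ± 194. The genes nearest to Prdx6 were Sqor, Dcxr and Fbxo42, with r of 0.979, 0.977 and 0.973. These are the highest of many values, the libraries share their groups, and the correlations are given as a description.

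The labels do not say how the authors counted reads shared with similar genes. Of all 50-base words in the annotated exons, Cat, Sod3, Prdx3 and Prdx4 shared none with another gene. Prdx6 shared 0.156%, Sod1 3.42%, Prdx1 8.81%, Prdx2 12.0%, Prdx5 15.5% and Sod2 21.0%. The Sod1 copy Gm8566 had 96 to 186 reads per library, against 15456 to 18253 for Sod1. For Prdx1 the copy Gm21399 had 320 to 370 reads against 17366 to 26193. Prdx2 had 2015 to 2929 reads. It shared 4.11% of its words with Junb, which had 529 to 1316 reads, and 3.40% with Rnaseh2a, which had 260 to 348. Tdpx-ps1, with which Prdx2 shared 4.53%, had 11 to 20 reads. Prdx5 shared 15.5% of its words with Trmt112, which had 325 to 442 reads against 3371 to 4379 for Prdx5. Sod2 shared 17.6% of its words with AC166110.4, for which no count was given. It shared 15.97% with Rps6ka2, which had 44 to 86 reads against 4234 to 5034 for Sod2. Words of Sod2 were found in 415 other genes, and a word can be shared with several genes. The values of Prdx1, Prdx2, Prdx5 and Sod2 are uncertain to the extent that such reads were split.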

How the data were processed

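The authors deposited 1 table of log2 values per gene and library for 9 RNA-seq libraries of mouse liver. HISAT and Cufflinks, with build mm9, are named per the submitters' processing notes, with the counting tool not given in the sources used here. A HiSeq 3000 is named in the design text and a BGISEQ500 in the library protocol. The deposited log2 values equal log2 of a read count over a library factor, plus 1. Whole reads (within 0.02) were recovered for 100% of values, and the factors match median-of-ratios factors within 1e-09.

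Groups were compared with limma 3.58.1 (R 4.3.3) on log2(scaled count + 1), in 1 fit of 3 group means over 9 libraries with an intensity trend, for genes averaging 1 scaled count or more. Tests were two-sided, p-values were adjusted by Benjamini and Hochberg's method over all genes tested, and the threshold was 0.05. On this scale the change of a gene with few reads is understated. The fit was first tested on simulated data. The written design expected another normalized unit, and the test for normalized units was kept.

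Replicate numbers were not used as pairs in the main fit. Same-numbered deviations correlated at -0.10 to -0.0044, -0.11 to 0.05 and 0.06 to 0.09 in the 3 comparisons. Different-numbered ones correlated at -0.12 to 0.18, -0.06 to 0.13 and -0.07 to -0.02. For selenite against control the same-numbered values were the higher ones. All these values were small, and they do not settle whether the numbers mark pairs. The alternatives were 4 other scalings, limma-voom on recovered reads, pseudocounts of 0.01 and 10, no filter or a minimum of 10, fits of 2 groups, no intensity trend, a replicate block and leaving out libraries. Members, gene lists and motifs were chosen with earlier results of these data known. All 10 members are named. Of a list, genes that passed are named, at most 6 per comparison by size of change, and others are given by value. Some list genes are not reported here. Lengths and 50-base words came from GENCODE vM21 and were used without coordinates, since that build differs from mm9.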

Additional observations from a re-analysis of the deposited data

How the results depend on the processing

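Of the 30 differences of the 10 enzymes, 18 passed, and 7 of these kept both direction and side of the threshold under all 22 alternatives: the rise of Sod3 with β-CYP, the falls of Cat, Prdx2, Prdx4 and Prdx6 with selenite against β-CYP, and those of Cat and Prdx6 against control. Of the 12 that did not pass, 9 stayed on that side under all 22, and 3 of these also kept their sign. The number of the 10 that passed for β-CYP against control went from 5 to 3 with equal totals, to 1 without the intensity trend and to 3 without both control replicate 2 and selenite replicate 2, an alternative chosen after seeing the data. For selenite against control it went from 7 to 3 with equal totals. Leaving out 1 library at a time gave 3 to 5 for β-CYP against control (3 without control replicate 1 or without β-CYP replicate 2), 6 to 7 for selenite against β-CYP and 6 to 8 for selenite against control. The replicate block left the counts at 5, 6 and 7. For the members and list genes examined, a sign change in which either value passed occurred only with equal totals or quantile normalization. Under quantile normalization Sod1 was 0.11 for selenite against β-CYP and 0.12 against control, Slc31a1 was 0.0518, Slc39a14 was 0.0842 and Aox3 was 0.0872 against β-CYP, and Pdia3 was 0.22 against control. With equal totals Sod2 was 8.91e-04 for selenite against control. Equal totals and quantile normalization change the centre or the spread of all genes by construction. The totals also include the reads of AY036118, which were 1805976 of 35821336 in control replicate 2. Standard errors were larger with equal totals, at 0.052 against 0.024 for Sod1 and 0.068 against 0.043 for Prdx3. No alternative combined equal totals with leaving out that gene or that library, so its weight in those results was not tested. Which scaling is right for these livers cannot be told from the table. The least abundant member, Sod3, had at least 544 reads in each library.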

Other observations

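Markers of the remaining 2 lists of liver cells were also counted. The 10 smooth muscle and stellate markers summed to 95.7 to 113 RPM in control, 122 to 123 with β-CYP and 131 to 140 with selenite. By limma's test 3 rose and none fell with β-CYP, and 5 rose and none fell with selenite against control. The 10 sinusoidal endothelium markers summed to 389 to 431, 409 to 415 and 435 to 440 RPM in that order, and 4 rose and 2 fell with β-CYP.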
